A study of Mus musculus with 8 samples.

Results

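The transcripts of 10 secreted or shed signals that tumor cells send to leukocytes were followed in 4T1 cells, a mouse triple-negative breast cancer line: the chemokines Cxcl1, Cxcl2, Cxcl5, Cxcl16, Ccl2, Ccl5, Ccl7 and Ccl20, and the colony-stimulating factors Csf1 and Csf3. They were chosen by name, with earlier results of these data known, and all 10 were found among the 54532 genes listed. Silencing of MCT-1 went with 3-fold lower Cxcl5 and Ccl20 and 3-fold higher Ccl5, and blockade of the IL-6 receptor (IL-6R) moved none of the members past the threshold of the test. The study compared 2 stable lines, 1 carrying a scramble shRNA and 1 carrying an shRNA against MCT-1 (shMCT-1). Each line was given 100 ng/ml of anti-mouse IL-6R antibody or control IgG for 48 h, which made 4 groups of 2 libraries, named scramble + IgG, shMCT-1 + IgG, scramble + anti-IL-6R and, for the silenced line under the antibody, shMCT-1 + anti-IL-6R. All groups had been kept under puromycin, and each background is represented by 1 line, so that an effect of MCT-1 and any other difference between these lines cannot be told apart.

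Chemokines are small proteins that bind G protein-coupled receptors on leukocytes and guide their movement. The CXC ligands with an ELR motif, to which CXCL1, CXCL2 and CXCL5 belong, act through CXCR2 and attract neutrophils. CXCL16 is made as a membrane protein, is shed by ADAM proteases and binds CXCR6. CCL2 and CCL7 recruit monocytes through CCR2, CCL5 attracts T cells and monocytes, and CCL20 is the ligand of CCR6. CSF1 (M-CSF) sustains monocytes and macrophages through CSF1R, and CSF3 (G-CSF) drives the production of neutrophils through CSF3R. The 4T1 tumor is known for its release of G-CSF and for the neutrophilia of its hosts.

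Library totals lay between 19839255 and 33063535 counts, and expression is given as CPM, the share of a gene in the total count of its library, so that 1 CPM stood for 19.8 to 33.1 counts. Mcts1, the gene of MCT-1, was at 11.8 to 15.4 CPM in the scramble libraries and at 4.92 to 6.70 CPM in the shMCT-1 libraries. The replicates are described as independent, but no source used here ties them to separate cultures, so p-values measure the spread between these libraries. The epithelial markers Krt8, Krt18 and Cdh1 were abundant, and the 6 markers together made 2344 to 2497 CPM in scramble and 3074 to 3332 CPM in shMCT-1. Among them, Epcam was at 3.75 to 4.93 CPM in scramble and 49.4 to 54.5 CPM in shMCT-1, and Krt19 was at 16.5 to 19.5 and 0.38 to 0.77 CPM. Of 11 immune markers, only Cd68 reached 1 CPM in any library, and Adgre1, S100a9, Cd3e and Ncr1 were among those at 0 in all 8 libraries. Their sum was 4.00 to 4.65 CPM in scramble and 6.33 to 8.27 CPM in shMCT-1, most of it Cd68. Cd68, the only 1 tested, was at 2.66 to 3.34 and 5.42 to 7.51 CPM and was called higher across both treatments. Among the untested ones, S100a8 was lower in shMCT-1, at 0.696 to 0.864 and 0.182 to 0.353 CPM. Lyz2 was at 0 in scramble and at 0.0455 to 0.183 CPM in shMCT-1, or 1 to 4 counts a library, where 3 or fewer were treated as the floor. The 7 fibroblast and endothelial markers summed to 15.5 to 17.4 and 13.2 to 17.7 CPM, most of it Pdgfra. Of the 3 of them that were tested, Pdgfra was not called. Col1a1, at 0.249 to 0.484 and 1.07 to 1.66 CPM, and Cdh5, at 0 to 0.124 and 0.454 to 1.46 CPM, were called higher in shMCT-1 across both treatments. Both exceeded 1 CPM only in shMCT-1 libraries. They thus passed the filter for testing, more than 1 CPM in 2 libraries, only through the background where they were high. Their calls are therefore not independent of that filter. The part of these marker differences in the results was not tested.

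The members spanned more than 3 orders of size in level. Cxcl1, Cxcl5, Cxcl16, Csf1 and Csf3 lay between 67.1 and 317 CPM in every library, and Ccl2, Ccl5 and Ccl20 between 1.36 and 7.73 CPM. Cxcl2 and Ccl7 were below 1 CPM in all 8 libraries, at 15 counts or fewer, and were not tested. The other 8 members exceeded 1 CPM in all 8 libraries and thus passed the filter, which asked for this level in 2 libraries.

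**Figure D1:**
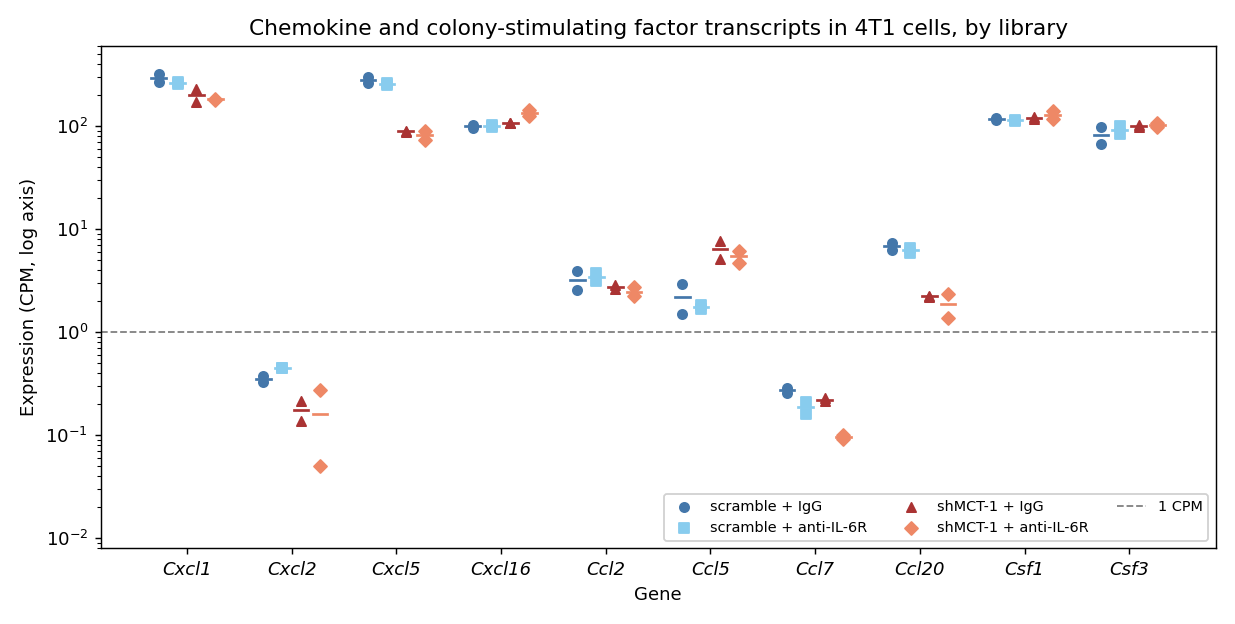
CPM of the 10 members on a log axis, with 1 point for each library, a bar at the mean of the 2 libraries of a group and a dashed line at 1 CPM. Cxcl5 and Ccl20 are lower and Ccl5 is higher in all 4 shMCT-1 libraries, and Cxcl2 and Ccl7 lie under the dashed line throughout.

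Levels of different genes were compared per kb of exon, over the 4 libraries of each background. In scramble, Cxcl1 was at 148 ± 14.5 CPM per kb (SD, n = 4) and Cxcl5 at 145 ± 11.5 CPM per kb (SD, n = 4), and these leading neutrophil ligands overlapped. Csf3 came next in scramble at 61.9 ± 10.8 CPM per kb (SD, n = 4), followed by Cxcl16 at 32.95 and Csf1 at 21.9 CPM per kb, none of which overlapped its neighbor in the order. In shMCT-1, Cxcl1 still led at 102 ± 14.6 CPM per kb (SD, n = 4). Csf3, at 71.6 ± 2.88 CPM per kb (SD, n = 4), stood above Cxcl5, at 45.6 ± 4.12 CPM per kb (SD, n = 4), and Cxcl5 overlapped Cxcl16, at 40.0 ± 5.50 CPM per kb (SD, n = 4). The CC chemokines also exchanged places. Ccl20 stood above Ccl2 and Ccl5 in scramble, at 4.58, 2.93 and 2.07 CPM per kb, whereas Ccl5 stood above Ccl2 and Ccl20 in shMCT-1, at 6.19, 2.30 and 1.44 CPM per kb. In scramble, Ccl2 and Ccl5 overlapped. At the bottom of both orders, Ccl7 and Cxcl2 overlapped each other at 0.363 CPM per kb or less. The length used is that of all annotated exons joined, and another choice of isoforms would shift these values.

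**Figure D2:**
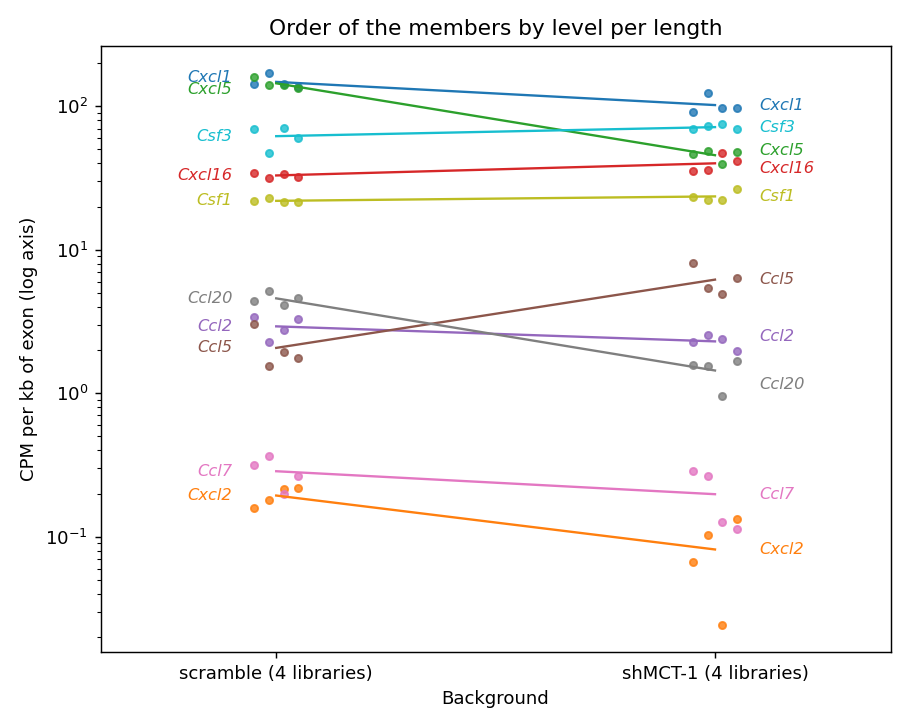
CPM per kb of exon on a log axis for the 10 members in the 4 scramble and the 4 shMCT-1 libraries, with 1 point for each library and lines joining the background means. The lines of Csf3 and Cxcl5 cross, as do those of Ccl5 and Ccl20.

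Cxcl5 and Cxcl1, which encode ligands of CXCR2, were the members that lost most transcript by amount. Cxcl5 (ENSMUSG00000029371, chr5:90759360-90761624, GRCm38) was at 300.2 and 263 CPM in scramble + IgG, 264 and 251 CPM in scramble + anti-IL-6R, 87.0 and 90.4 CPM in shMCT-1 + IgG, and 73.6 and 88.9 CPM in shMCT-1 + anti-IL-6R. Every shMCT-1 library lay far below every scramble library, and the libraries of each background stayed close together. Under IgG, Cxcl5 was 3.08-fold lower in shMCT-1 (log2 fold change -1.62, standard error 0.11, adjusted p = 4.62e-06, edgeR's quasi-likelihood test). Under anti-IL-6R the fall was 3.05-fold (log2 fold change -1.61, standard error 0.11, adjusted p = 4.25e-06, edgeR). These comparisons share no library. Without any 1 of the 8 libraries the log2 fold change stayed between -1.70 and -1.54 within IgG and between -1.73 and -1.47 within anti-IL-6R.

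Cxcl1 (ENSMUSG00000029380, chr5:90891241-90893115) was at 269 and 317 CPM in scramble + IgG, 267 and 256 CPM in scramble + anti-IL-6R, 170 and 232 CPM in shMCT-1 + IgG, and 182 and 181 CPM in shMCT-1 + anti-IL-6R. The backgrounds did not overlap, but replicate 2 of shMCT-1 + IgG came near the scramble libraries. Its fall was smaller than that of Cxcl5, with a log2 fold change of -0.50 within IgG (standard error 0.14, adjusted p = 0.0126, edgeR) and -0.47 within anti-IL-6R (standard error 0.14, adjusted p = 0.0176, edgeR). Across both treatments, in an additive model, it was -0.49 (standard error 0.09, adjusted p = 0.000814, edgeR). The calls within a treatment rested on few libraries. Within IgG the adjusted p from edgeR was 0.0869 without replicate 2 of scramble + IgG (log2 fold change -0.36) and 0.108 without replicate 1 of shMCT-1 + IgG (-0.30). Within anti-IL-6R it was 0.0829 without replicate 1 and 0.0549 without replicate 2 of scramble + anti-IL-6R, and 0.0677 without replicate 1 and 0.0646 without replicate 2 of shMCT-1 + anti-IL-6R. The additive call held without any 1 library, with a largest adjusted p of 0.00329 (edgeR). As Cxcl5 fell more than Cxcl1, the ratio of Cxcl5 to Cxcl1 in CPM was 0.827 to 1.12 in the scramble libraries and 0.390 to 0.511 in the shMCT-1 libraries.

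Cxcl2 (ENSMUSG00000058427, chr5:90903871-90905938) had 9 and 9 counts in scramble + IgG, 14 and 15 in scramble + anti-IL-6R, 3 and 5 in shMCT-1 + IgG, and 1 and 6 in shMCT-1 + anti-IL-6R, or 0.0504 to 0.454 CPM. In these few counts the backgrounds again did not overlap (two-sided exact permutation test, 4 against 4 libraries, p = 0.0286, the smallest it can give, 1 of 10 such tests, all of which ignored treatment). Such separation was common, as 34.2% of the 12704 tested genes were lower and 29.9% higher in shMCT-1 without overlap. No fold is given, since some shMCT-1 libraries were at or under 3 counts. The close relatives Cxcl3 and Ppbp, which encodes the CXCR2 ligand CXCL7, were also below 1 CPM everywhere, at 0.121 to 0.436 and 0.299 to 0.819 CPM, and overlapped between backgrounds. The transcript of the receptor, Cxcr2, did not exceed 0.410 CPM in any library, and Cxcr1 was at 0.

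The expressed ELR chemokines lie in a cluster on chromosome 5, and most of the other tested genes there were called lower. Within 500 kb of Cxcl5, 5 of 6 other tested genes were called lower and 1 higher across both treatments, where 35.4% of the 842 tested genes of the chromosome were called lower and 34.4% higher. Their median log2 fold change was -0.81, against -0.02 for the chromosome. These neighbors were examined after their values were seen. They include the EGF receptor ligand Areg, at 143 to 156 CPM in scramble and 80.9 to 89.3 CPM in shMCT-1, and Ankrd17, at 313 to 338 and 130 to 213 CPM. Afp was the 1 that was higher, at 1.47 to 2.39 and 12.7 to 15.5 CPM. Around Cxcl16 on chromosome 11, 19 of 30 tested neighbors were called higher and 2 lower (median 0.31), where 45.3% of the 1001 tested genes of that chromosome were called higher and 22.5% lower (median 0.15). Ccl5, also on chromosome 11, rose while 1 of 10 tested genes around it was called higher and 5 lower (median -0.32). Of only 3 tested genes around Ccl20, which fell, 1 was called higher and 0 lower (median 0.54). On its chromosome 1, 49.3% of 746 tested genes were called higher and 22.4% lower (median 0.21). Around Csf1 on chromosome 3, 7 of 16 were called higher and 7 lower. Over that chromosome, 42.7% of 637 tested genes were called higher and 27.8% lower. Around Csf3 on chromosome 11, 9 of 22 were called higher and 4 lower. No tested gene other than a member lay within this distance of Ccl2 or Ccl7. Some neighbors counted here exceeded 1 CPM only in the background where they were higher, so the filter bore on their direction. Among these were Gm9958 near Cxcl5, at 1.78 to 2.24 CPM in scramble and 0.151 to 0.366 CPM in shMCT-1, and Gnat2 near Csf1, at 0.945 to 0.996 and 1.26 to 1.87 CPM. Another was Slfn2, the 1 called higher near Ccl5, at 0.635 to 0.872 and 1.11 to 1.74 CPM. What these shifts of neighbors share with those of the members was not tested.

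Promoter sequence was available for Cxcl1 and Ccl20, which were called lower, for Cxcl2, which was not tested, and for Csf1, which was not called. The 250 bases before the RefSeq start of each gene on GRCm38.p6 are shown 5′ to 3′. Capitals mark matches to GGNNTTTCC on either strand, the letters of an NF-kB type site. The windows of Cxcl1 and Cxcl2 end past the gene starts printed above, which are those of GENCODE.
Cxcl1, chr5:90890995-90891244, plus strand: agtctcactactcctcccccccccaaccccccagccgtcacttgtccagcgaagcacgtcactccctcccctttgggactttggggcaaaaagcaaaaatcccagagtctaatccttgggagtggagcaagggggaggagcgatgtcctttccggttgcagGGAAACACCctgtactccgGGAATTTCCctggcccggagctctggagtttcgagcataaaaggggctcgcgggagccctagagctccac
Cxcl2, chr5:90903649-90903898, plus strand: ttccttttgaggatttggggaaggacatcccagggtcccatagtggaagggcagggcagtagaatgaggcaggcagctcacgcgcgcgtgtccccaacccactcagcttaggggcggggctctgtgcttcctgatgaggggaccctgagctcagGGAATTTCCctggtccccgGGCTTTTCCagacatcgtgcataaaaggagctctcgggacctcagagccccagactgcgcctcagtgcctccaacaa
Ccl20, chr1:83116516-83116765, plus strand: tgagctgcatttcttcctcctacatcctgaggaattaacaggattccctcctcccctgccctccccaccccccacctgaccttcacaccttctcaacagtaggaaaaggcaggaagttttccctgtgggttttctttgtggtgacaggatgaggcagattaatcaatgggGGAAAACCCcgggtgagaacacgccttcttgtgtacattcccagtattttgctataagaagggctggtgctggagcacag
Csf1, chr3:107760470-107760719, minus strand: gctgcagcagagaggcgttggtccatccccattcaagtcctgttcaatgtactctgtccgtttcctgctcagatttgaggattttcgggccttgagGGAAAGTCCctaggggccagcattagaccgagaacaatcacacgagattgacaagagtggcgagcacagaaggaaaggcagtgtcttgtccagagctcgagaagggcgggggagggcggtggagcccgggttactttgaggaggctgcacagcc
All 4 windows held these letters, with 2 matches each in Cxcl1 and Cxcl2 and 1 each in Ccl20 and Csf1, against 4.93% of 32851 promoter windows of the same length. The first base of the match nearest the RefSeq start lay 70 bases before that start in Cxcl1, 77 in Cxcl2, 80 in Ccl20 and 154 in Csf1. No window held TTCNNNGAA (STAT type, in 7.02% of all windows), TTGCNNAA (C/EBP type, 9.56%) or TGANTCA (AP-1 type, 6.75%) on either strand. A match describes letters and is no evidence of binding, and among these genes Cxcl1 exceeded 170 CPM in every library while Cxcl2 stayed under 1 CPM.

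Cxcl16 (ENSMUSG00000018920, chr11:70453983-70459984) was at 103 and 96.3 CPM in scramble + IgG, 102 and 97.5 CPM in scramble + anti-IL-6R, 107 and 108 CPM in shMCT-1 + IgG, and 142 and 127 CPM in shMCT-1 + anti-IL-6R. All shMCT-1 libraries were above all scramble libraries, by a narrow margin under IgG and a wider one with the antibody. As a log2 fold change this was 0.16 within IgG, which was not called (standard error 0.09, adjusted p = 0.159, edgeR), and 0.49 within anti-IL-6R, which was called (standard error 0.09, adjusted p = 0.00131, edgeR). The difference between these effects was 0.33 with a 95% interval of 0.05 to 0.61, and this interaction did not pass after adjustment (unadjusted p 0.0238 and adjusted p = 1.00, edgeR's quasi-likelihood test). Its expected counts were not whole in any of the 8 libraries, because RSEM divided some of its reads among features, whereas those of the other 9 members were whole in all. Of the proteases that shed it, Adam10 was at 79.2 to 85.0 CPM in scramble and 78.6 to 101 CPM in shMCT-1. Although these ranges overlapped, Adam10 was called higher across both treatments, but not within anti-IL-6R. Adam17 was called lower within anti-IL-6R (log2 fold change -0.63, adjusted p = 0.000412, edgeR).

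Ccl5 was the member that rose most. Ccl5 (ENSMUSG00000035042, chr11:83525778-83530518) was at 2.91 and 1.49 CPM in scramble + IgG, 1.86 and 1.69 CPM in scramble + anti-IL-6R, 7.73 and 5.16 CPM in shMCT-1 + IgG, and 4.74 and 6.15 CPM in shMCT-1 + anti-IL-6R. The lowest shMCT-1 library lay above the highest scramble library, and the replicates under IgG were the most scattered. The rise was 2.99-fold within IgG (log2 fold change 1.58, standard error 0.31, adjusted p = 0.00217, edgeR) and 3.19-fold within anti-IL-6R (1.67, standard error 0.32, adjusted p = 0.00174, edgeR). Without replicate 2 of scramble + IgG the log2 fold change within IgG was 1.20, the lowest of the fits that left out 1 library, and the call held in all of them.

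Ccl20, the CCR6 ligand, fell by about the factor by which Ccl5 rose. Ccl20 (ENSMUSG00000026166, chr1:83116766-83119167) was at 6.25 and 7.39 CPM in scramble + IgG, 5.89 and 6.53 CPM in scramble + anti-IL-6R, 2.24 and 2.22 CPM in shMCT-1 + IgG, and 1.36 and 2.37 CPM in shMCT-1 + anti-IL-6R. The backgrounds were well apart, and the lowest value was replicate 1 of shMCT-1 + anti-IL-6R. The fall was 2.96-fold within IgG (log2 fold change -1.57, standard error 0.24, adjusted p = 0.00057, edgeR) and 3.18-fold within anti-IL-6R (-1.67, standard error 0.25, adjusted p = 0.000457, edgeR). Without that lowest library the latter value became -1.32 and was still called. The direction thus differed among CC chemokines of similar level, and the 95% intervals of their log2 fold changes within IgG ran from 0.88 to 2.28 for Ccl5 and from -2.11 to -1.02 for Ccl20.

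Of the CCR2 ligands, Ccl2 was tested and not called, and Ccl7 was too low to be tested. Ccl2 (ENSMUSG00000035385, chr11:82035571-82037453) was at 3.89 and 2.57 CPM in scramble + IgG, 3.14 and 3.72 CPM in scramble + anti-IL-6R, 2.61 and 2.90 CPM in shMCT-1 + IgG, and 2.72 and 2.23 CPM in shMCT-1 + anti-IL-6R. The backgrounds overlapped. The log2 fold change was -0.19 within IgG (95% interval -0.76 to 0.39, adjusted p = 0.555, edgeR) and -0.42 within anti-IL-6R (95% interval -0.99 to 0.16, adjusted p = 0.195, edgeR), so that the lower bound within anti-IL-6R was 0.503 of the scramble level. Across both treatments it was -0.30 (adjusted p = 0.154, edgeR), and without replicate 2 of scramble + IgG it was -0.43 and passed the threshold (adjusted p = 0.0428, edgeR). Ccl7 (ENSMUSG00000035373, chr11:82045712-82047525) had 7 and 7 counts in scramble + IgG, 5 and 7 in scramble + anti-IL-6R, 5 and 5 in shMCT-1 + IgG, and 2 and 2 in shMCT-1 + anti-IL-6R. Its backgrounds overlapped (two-sided exact permutation test, 4 against 4 libraries, p = 0.229), and a difference was not detectable at this depth.

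The colony-stimulating factors were abundant and differed little between backgrounds. Csf1 (ENSMUSG00000014599, chr3:107741048-107760469) was at 116 and 121 CPM in scramble + IgG, 113 and 114 CPM in scramble + anti-IL-6R, 123 and 117 CPM in shMCT-1 + IgG, and 117 and 141 CPM in shMCT-1 + anti-IL-6R. Most libraries fell within a narrow band, above which stood replicate 2 of shMCT-1 + anti-IL-6R. Against scramble, shMCT-1 had a log2 fold change of 0.06 within IgG (95% interval -0.16 to 0.28, adjusted p = 0.611, edgeR) and of 0.24 within anti-IL-6R (95% interval 0.02 to 0.46, adjusted p = 0.0635, edgeR). Without replicate 1 of shMCT-1 + anti-IL-6R the latter was 0.38 and was called (adjusted p = 0.00843, edgeR). Across both treatments it was 0.15 (adjusted p = 0.0746, edgeR), and it was called at 0.19 without replicate 2 of scramble + IgG (adjusted p = 0.0347) and at 0.19 without replicate 1 of shMCT-1 + anti-IL-6R (adjusted p = 0.0492).

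Csf3 (ENSMUSG00000038067, chr11:98701263-98703629) was at 98.6 and 67.1 CPM in scramble + IgG, 99.6 and 84.6 CPM in scramble + anti-IL-6R, 97.7 and 103 CPM in shMCT-1 + IgG, and 106 and 98.0 CPM in shMCT-1 + anti-IL-6R. The shMCT-1 libraries lay close together, the lowest values were those of replicate 2 of scramble + IgG and of scramble + anti-IL-6R, and the backgrounds overlapped. The log2 fold change was 0.32 within IgG (standard error 0.15, adjusted p = 0.105, edgeR) and 0.21 within anti-IL-6R (standard error 0.15, adjusted p = 0.28, edgeR). Across both treatments it was 0.26 and was called (standard error 0.10, adjusted p = 0.043, edgeR). That call was lost without replicate 2 of scramble + IgG (0.15, adjusted p = 0.0807), replicate 2 of scramble + anti-IL-6R (0.22, adjusted p = 0.127), replicate 1 (0.27, adjusted p = 0.0818) or 2 (0.24, adjusted p = 0.107) of shMCT-1 + IgG, or replicate 1 of shMCT-1 + anti-IL-6R (0.25, adjusted p = 0.0903). Within IgG, leaving out replicate 1 of scramble + IgG gave 0.60 and a call (adjusted p = 0.0047, edgeR), and a replicate block gave 0.34 and a call (adjusted p = 0.0484, edgeR).

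Upon anti-IL-6R, no member changed past the threshold in either line. In the scramble line the 8 log2 fold changes against IgG ran from -0.33 for Ccl5 to 0.15 for Csf3, and in the silenced line from -0.24 for Ccl20 to 0.32 for Cxcl16. Among all tested genes, 0% were called in scramble, 0% in shMCT-1 and 0% for the interaction of shMCT-1 and anti-IL-6R (edgeR), with 166, 505 and 315 genes at an unadjusted p under 0.05. DESeq2 called 0, 11 and 6 genes in these comparisons, and edgeR's exact test called 10 in scramble and 14 in shMCT-1, none of them a member. For the abundant ligands the intervals were narrower than for Ccl2, Ccl5 and Ccl20, but they still left modest changes possible. In scramble, the 95% interval of the fold upon anti-IL-6R was 0.777 to 1.06 for Cxcl5, 0.714 to 1.10 for Cxcl1, 0.821 to 1.11 for Csf1 and 0.873 to 1.40 for Csf3. Those of Ccl5 (0.475 to 1.34) and Ccl2 (0.719 to 1.54) left larger changes possible. Cxcl16 had the smallest unadjusted p, 0.00437 in shMCT-1, where both anti-IL-6R libraries were above both IgG libraries (fold 1.25, 95% interval 1.09 to 1.43, adjusted p = 1.00, edgeR). The comparisons within a treatment share libraries with those upon anti-IL-6R, so a high or low library enters both. Il6 itself was below 1 CPM in every library, at 0.32 to 0.51 CPM in scramble and 0 to 0.27 CPM in shMCT-1.

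**Figure D3:**
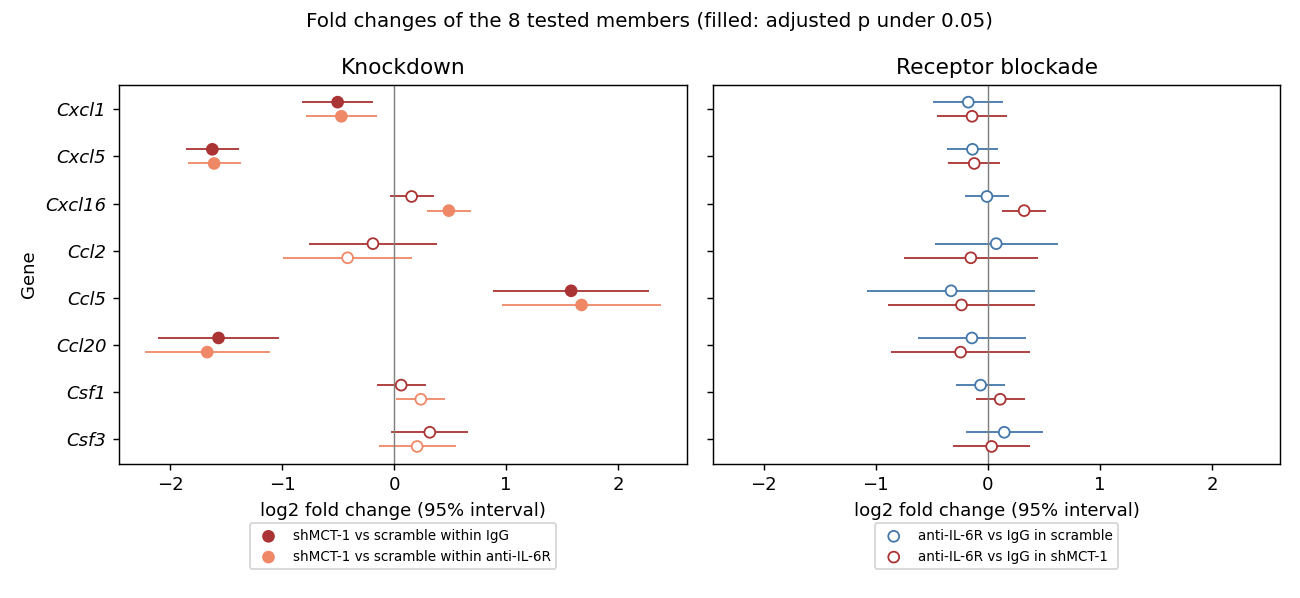
Log2 fold changes of the 8 tested members with 95% intervals, for shMCT-1 against scramble on the left and anti-IL-6R against IgG on the right, with filled points for an adjusted p under 0.05. Cxcl5, Ccl20 and Ccl5 lie farthest from 0 on the left, and no point is filled on the right.

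Counted together, 1 of the 8 tested members was called higher and 3 lower within IgG, where 28.3% of the 12704 tested genes were called higher and 26.2% lower. Within anti-IL-6R, 2 were called higher and 3 lower, where the shares of all tested genes were 26.9% and 27.3%. Across both treatments 3 were called higher and 3 lower, against 35.0% and 34.0% of all tested genes. The median log2 fold change of the tested members was -0.06 within IgG and -0.11 within anti-IL-6R, beside 0.01 and 0.01 over all tested genes. Without overlap between backgrounds, 2 of the 8 tested members (Cxcl16 and Ccl5) were higher in shMCT-1 and 3 (Cxcl1, Cxcl5 and Ccl20) lower, against 29.9% and 34.2% of the tested genes. With 8 tested members, these shares do not read as a result about the members. Summed over the 10 members, expression was 816 to 899.6 CPM in scramble and 598 to 660.1 CPM in shMCT-1. Cxcl1 and Cxcl5 made up 62.0% to 66.2% of this sum in scramble and 40.6% to 48.8% in shMCT-1. In such bulk RNA, fewer cells expressing a gene and less RNA per cell cannot be told apart.

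Few other ligands of these families were expressed. Of 13 other CXC, CX3C and XC ligands, 11 were below 1 CPM in every library and 2 were tested. Both were called higher in shMCT-1 within anti-IL-6R, where 26.9% of all tested genes were called higher and 27.3% lower. The counts called in the other ligand and growth factor lists below are to be read against the same shares. With so few tested genes, they do not read as a result about these families. Cx3cl1, the membrane-bound fractalkine, was at 77.2 to 87.7 CPM in scramble and 143 to 156 CPM in shMCT-1 (log2 fold change 0.87 within anti-IL-6R, adjusted p = 6.06e-05, edgeR). Cxcl10, an interferon-induced ligand of CXCR3, was at 0.747 to 1.48 and 1.92 to 2.60 CPM (1.03, adjusted p = 0.0309, edgeR). Of 16 other CC ligands, 13 were below 1 CPM throughout, 2 were tested and Ccl25, the ligand of CCR9, was called lower, at 6.76 to 8.53 and 4.49 to 5.63 CPM. Of 6 other myeloid and stem cell growth factors, 5 were tested, and within anti-IL-6R Il34, a second ligand of CSF1R, and Flt3l, the FLT3 ligand, were called higher (0.44 and 0.67 on the log2 scale). Csf2, which encodes GM-CSF, was at 1.63 to 1.91 and 1.66 to 2.42 CPM and was not called.

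Transcripts of receptors for these ligands were mostly below 1 CPM. Of 26 receptors, 23 were below 1 CPM in all libraries and 9, among them Ccr2, Ccr6 and Csf3r, were at 0 in all. Csf1r was at 0.302 to 0.592 CPM. Only 2 receptors were tested, and of these Ccr10 was not called within anti-IL-6R, where 26.9% of all tested genes were called higher and 27.3% lower. Ackr3, an atypical receptor that takes up CXCL11 and CXCL12, was called higher, at 36.9 to 40.0 CPM in scramble and 56.6 to 63.4 CPM in shMCT-1.

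Inducers of chemokine transcription, feedback inhibitors and mRNA decay factors moved both ways. Of 14 inducers and inducible regulators, 11 were tested, and within anti-IL-6R 2 were called higher and 5 lower, with a median log2 fold change of -0.17, where 26.9% of all tested genes were called higher and 27.3% lower. Il1a, the alarmin that signals through IL-1R1, was at 6.08 to 6.85 CPM in scramble and 32.0 to 35.6 CPM in shMCT-1, and was called higher (log2 fold change 2.56, adjusted p = 1.75e-07, edgeR). Il1r1, its receptor, was called lower, at 22.7 to 23.6 and 9.01 to 9.94 CPM. Cebpb, a transcription factor of acute phase and myeloid genes, was called lower at 346 to 383 and 138 to 162 CPM, and so was Tlr4, the receptor of endotoxin, at 14.3 to 15.2 and 7.01 to 8.06 CPM. Of 10 feedback inhibitors and mRNA decay factors, 9 were tested, with 1 called higher and 5 lower in the same comparison (median -0.28), to be read against the same shares. Zc3h12a, the RNase Regnase-1 that degrades cytokine mRNAs, was the 1 that was higher, at 39.2 to 41.0 and 66.2 to 76.2 CPM. Zfp36l1, which binds AU-rich elements, was at 156 to 188 and 76.5 to 100.2 CPM, and Nfkbia, the inhibitor of NF-kB that NF-kB itself induces, was at 147 to 157 and 95.2 to 108 CPM. Socs3, also on this list, was at 22.0 to 27.8 and 14.8 to 17.7 CPM. Of 6 proteases that shed or trim the ligands, 4 were tested, with 1 called higher and 1 lower in that comparison, beside the same shares. Mmp9, which cleaves CXC chemokines, was called higher, at 46.6 to 64.7 and 181 to 235 CPM.

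**Figure D4:**
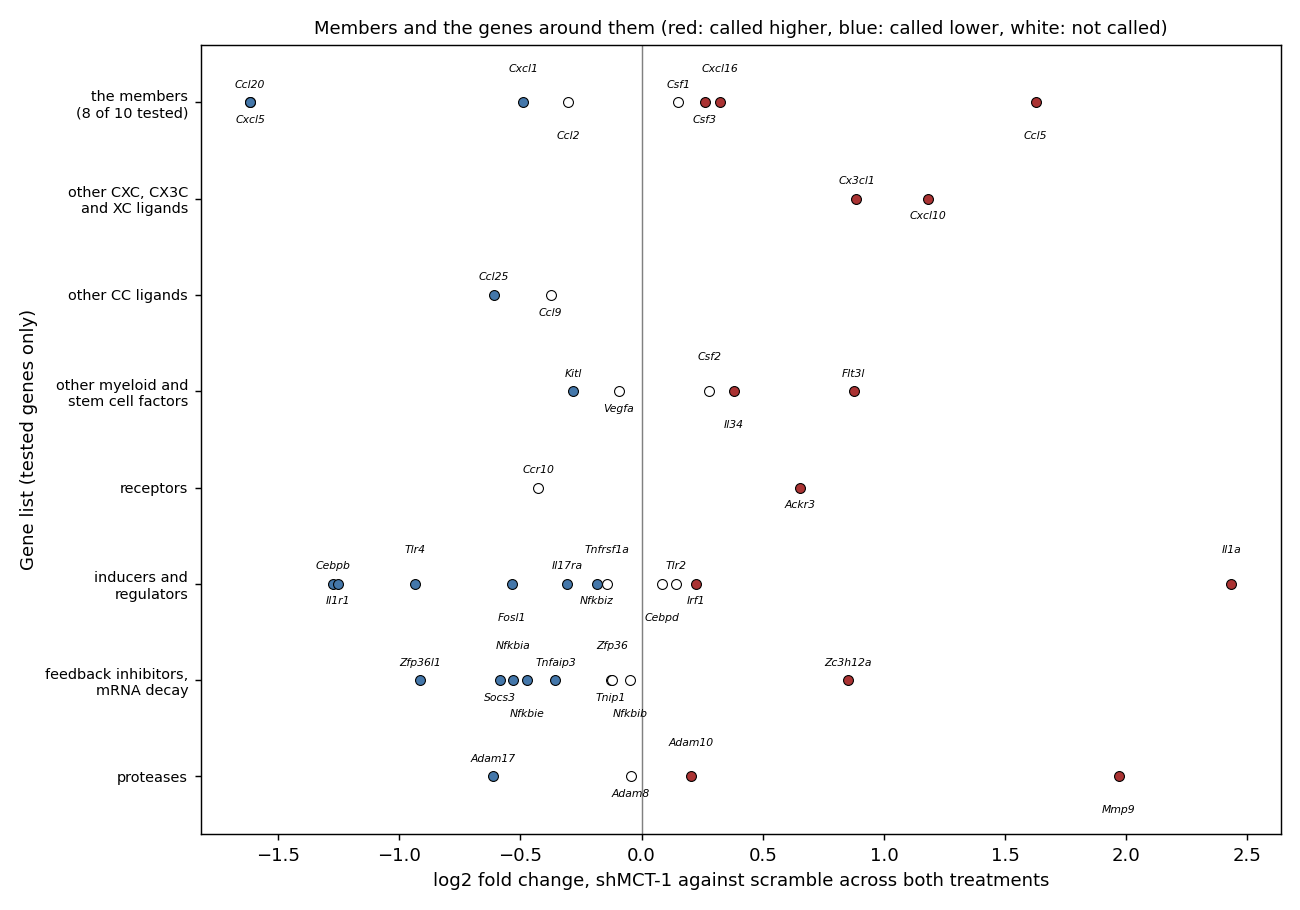
Log2 fold change upon silencing, across both treatments, for the tested genes of the members and of 7 related lists, with 1 point for each gene, red for called higher, blue for called lower and white for not called. Ccl20 and Cxcl5 share the lowest place among the members, near -1.6, and Ccl5 the highest.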

How the data were processed

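RNA of 8 libraries of 4T1 cells, 2 for each of 4 groups taken from the sample labels, was poly(A)-selected and sequenced. The authors trimmed reads with cutadapt 1.18, aligned them to mm10 (GENCODE) with STAR 2.7.0d and deposited expected counts per gene from RSEM, which are not scaled for depth or length. Of all values above 0 in the files, 29.6% were fractional, and every value was rounded to a whole count here. Strand setting and use of molecular identifiers in counting are not given in the sources used here. Genes above 1 CPM in 2 or more libraries (12704 of 54532) were scaled by TMM and tested with edgeR 4.0.16 (R 4.3.3), glmQLFit and glmQLFTest, over all 8 libraries with 4 group means. The effect of silencing across both treatments came from an additive fit of line and treatment. p-values were adjusted by Benjamini-Hochberg over all tested genes, and a gene was called under 0.05. Standard errors were derived from the F statistic. With 2 libraries against 2, an exact permutation test cannot go below p = 0.333, so p-values within a treatment come from the model. Counts of 3 or fewer were treated as the floor, for counting error only. Positions and exon lengths came from GENCODE M21 on GRCm38, and 54409 gene identifiers had a symbol. Promoter entries were found for 4 of the 10 members.

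The members and gene lists were chosen with earlier results of these data known. All 10 members were named; from the other lists, genes called within anti-IL-6R with the largest changes and a mean of at least 1 CPM, at most 8 a list, together with Mcts1, Ppbp, Cxcr2, Il6, Csf2, Cxcl3 and Csf1r. Other genes named (receptors at 0, markers, shedding proteases and chromosomal neighbors) were added after their values were seen. Alternatives were RLE size factors, no filter, filterByExpr, DESeq2 1.42.0, edgeR's exact test on only the libraries compared, unrounded counts, the replicate number as a block, and each library left out in turn.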

Additional observations from a re-analysis of the deposited data

How the results depend on the processing

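Members called numbered 4 within IgG (3 to 5 with each library left out), 5 within anti-IL-6R (4 to 5) and 6 across both treatments (5 to 7). No member was called upon anti-IL-6R or for the interaction in any fit. Cxcl5, Ccl5 and Ccl20 kept their direction and call in every fit of shMCT-1 against scramble. Where a group was left with 1 library, that library was assumed to vary like the others. Outside the fits without a library, the sign changed once, for Cxcl16 upon anti-IL-6R in scramble (log2 fold change 0.016 without a filter). Without 1 library the sign changed in 31 fits, all of members not called in that comparison. These log2 fold changes ran from -0.44 to 0.12 for Ccl2 within IgG. Upon anti-IL-6R in scramble they ran from -0.042 to 0.026 for Cxcl16, -0.70 to 0.22 for Ccl5, -0.17 to 0.39 for Ccl2, -0.27 to 0.00044 for Ccl20 and -0.089 to 0.43 for Csf3. Upon anti-IL-6R in shMCT-1 they ran from -0.50 to 0.083 for Ccl5, -0.021 to 0.11 for Csf3, -0.35 to 0.10 for Cxcl1, -0.25 to 0.013 for Cxcl5, -0.69 to 0.096 for Ccl20, -0.29 to 0.0027 for Ccl2 and -0.017 to 0.25 for Csf1. For the interaction they ran from -0.10 to 0.16 for Cxcl5, -0.46 to 0.47 for Ccl5, -0.54 to 0.25 for Ccl20, -0.17 to 0.27 for Cxcl1, -0.54 to 0.019 for Ccl2 and -0.40 to 0.12 for Csf3. With a replicate block, 5, 5 and 6 members and 7035, 7017 and 8790 genes were called within IgG, within anti-IL-6R and across both treatments, and Csf3 within IgG was the only member whose call changed. Deviations of libraries with the same number correlated at -0.11 to 0.11, so the numbers are not shown to pair samples.

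Genes called upon anti-IL-6R in scramble were 64 without a filter, 10 by the exact test and 0 to 14 with each library left out. In shMCT-1 they were 133, 14 and 0 to 1, with 11 by DESeq2, and for the interaction 97 without a filter, 6 by DESeq2 and 0 to 8 with each library left out. Within anti-IL-6R, leaving out each library gave 4390 to 7304 genes. RLE factors and unscaled totals moved the median of all genes by less than 0.1 on the log2 scale. Depth limited Cxcl2 and Ccl7, and 2 libraries a group limited the rest.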
